A study of Mus musculus with 21 samples.

Results

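The right ventricle was compared with the left ventricle of the same mouse heart by bulk RNA sequencing. The comparison took every mouse with usable libraries from both ventricular sections, which gave 12 of the 21 libraries of the study, 6 from the right and 6 from the left ventricle. All animals were adult male wild-type mice. The 3 nanoplastics mice (numbers 1, 3 and 4) had received polystyrene nanoplastics for 8 weeks, and the 3 control mice (numbers 1, 2 and 3) distilled water. Each heart had been flushed with cold saline and cut into sections of the atria, the right ventricle and the left ventricle, with a library made from each. The fourth nanoplastics mouse (number 2) was left out because its right ventricular library held 4662 counts in 1462 genes. The question asked here was which transcripts differ between the pumping chambers of one heart, and whether that difference depends on the treatment.

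The right ventricle pumps blood to the lungs at low pressure and the left ventricle pumps it to the body at high pressure, so the left wall is thicker and carries more load. The chambers also differ in origin: most right ventricular muscle comes from the second heart field and most left ventricular muscle from the first, and embryonic transcription factors such as Hand1 on the left and Hand2 on the right mark the sides. In the adult, both walls are built mainly of the same working cardiomyocytes, with fibroblasts, endothelial cells, pericytes and macrophages between them.

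The 12 libraries held about 413400 to 2439000 counts each. The left library was the deeper one in 5 of 6 mice, with control mouse 3 as the exception (413400 counts on the left against 1333000 on the right). Levels are given as CPM, counts relative to the total of the library, after scaling by trimmed mean of M values (TMM), which aligns the libraries on the bulk of their genes. Summed levels of marker genes, here and below, are relative to total counts without TMM scaling. Ventricular muscle markers were abundant on both sides: the summed level of the 10 markers was 25240 ± 1701 CPM on the right and 25500 ± 1426 CPM on the left (SD, n = 6 each). One library stood apart. In the left ventricular library of nanoplastics mouse 4, the atrial muscle genes Myl7 (atrial regulatory light chain), Sln (sarcolipin) and Myl4 (atrial essential light chain) reached 780.9, 593.8 and 230.4 CPM of its total counts. The 3 genes together summed to 1605 CPM in it, 100.4 CPM in the right library of the same mouse, 41.12 CPM in the left library of control mouse 3 and at most 11.16 CPM in the other 9. All 17 genes of the atrial marker list had a row in the table, and their summed level ran from 272.9 to 641.5 CPM on the right and from 172.8 to 2397 CPM on the left. Bmp10, an atrial growth factor, had 1 count on each side, and Sln was at 0 in the left library of nanoplastics mouse 1. The part of atrial tissue in the results below was not tested, and the counts of called genes in edgeR over all mice and in nanoplastics mice are therefore given with and without nanoplastics mouse 4.

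Right and left ventricle could not be separated gene by gene in these 6 hearts. Of 5382 genes with enough counts, 0 (0%) differed between the ventricles at an adjusted p under 0.05 in edgeR's quasi-likelihood test with the mouse as a block. At an unadjusted p under 0.05 there were 270 genes (5.02%), of which 154 (2.86%) were higher on the right and 116 (2.16%) higher on the left. DESeq2 also called 0 genes, with 85 at an unadjusted p under 0.05. Leaving out nanoplastics mouse 4 gave 0 called genes of 5967. The smallest unadjusted p was 8.36e-05, which corresponds to an adjusted p of 0.450.

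The 95% intervals of the model give the range of differences that it allows for each gene. They rest on a variance partly shared across genes (median of 64.8 degrees of freedom), not on the spread between the 6 mice alone. How large a difference could have been missed by that spread alone was not tested, so the shares below hold for the model's variance. The median log2 difference (right minus left) over all tested genes was -0.0019, its quartiles were -0.10 and 0.12, and the extremes were -0.83 and 1.00. For 5251 of the 5382 genes (97.57%) the 95% interval of the right-to-left ratio lay wholly inside 2-fold, and for 3677 (68.32%) it lay inside 1.5-fold. The other 1705 genes had an interval that reached 1.5-fold, so a difference of that size was not excluded for them, and a p above the threshold does not show that the ventricles are alike. Precision followed the level of the gene. Among the 2216 genes with a mean under 20 CPM, 33.62% had an interval inside 1.5-fold, against 96.92% of the 130 genes above 1000 CPM. In the plot of all tested genes, the points narrow toward 0 as the level rises, and 131 genes have an interval that reaches 2-fold.

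**Figure D1:**
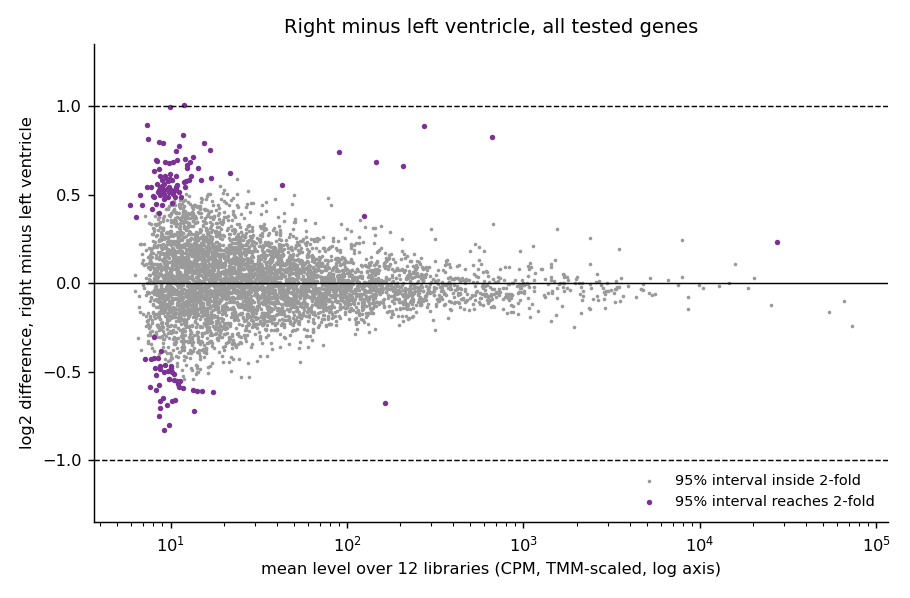
Each point is 1 of 5382 tested genes, placed by its mean level over the 12 libraries (CPM, log axis) and its log2 difference, right minus left ventricle, in 6 mice. Purple points are the 131 genes whose 95% interval reaches a 2-fold difference (dashed lines), and grey points the 5251 genes whose interval stays inside it.

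Genes listed for patterning of the sides of the embryonic heart, transcription factors among them, were mostly too scarce to test. Of 12 genes listed for left-sided patterning, 1 had enough counts (Smarcd3, a chromatin remodelling subunit of cardiac progenitors, at 0.20 log2 lower on the right, 95% interval -0.70 to 0.30). Of 15 genes listed for right-sided and outflow tract patterning, 3 did (Hand2, Mef2c and Rgs5). Hand1 was not analysed here. Hand2, the right ventricular partner of Hand1 in the embryo, ran from 9.64 to 18.3 CPM on the right (median 13.8) and from 12.2 to 18.7 CPM on the left (median 13.8). The ranges overlapped almost completely, and the log2 difference was -0.0096 with an interval of -0.43 to 0.42.

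The Iroquois genes Irx3, Irx4 and Irx5 lay below the count limit, and their CPM values are relative to total counts without TMM scaling. Irx4, a homeobox factor of ventricular muscle, had 19 counts on the right and 40 on the left. It measured 2.45, 3.35 and 2.25 CPM in the right libraries of control mice 1, 2 and 3 and 4.51, 5.64 and 9.68 CPM in their left libraries. In nanoplastics mice 1, 3 and 4 it measured 1.91, 2.46 and 4.57 CPM on the right and 2.96, 2.47 and 5.41 CPM on the left. The left value was the higher one in 6 of 6 mice, though in nanoplastics mouse 3 the values were all but equal. Irx5, which shapes the gradient of repolarising current across the wall, had 13 counts on the right and 4 on the left, higher on the right in 5 mice and at 0 counts on both sides in the other one. Irx3, a factor of the fast conduction system, had 75 and 52 counts and was higher on the right in 4 of 6 mice. With no limit on counts (19370 genes tested), their log2 differences were -0.89 for Irx4, 2.06 for Irx5 and 0.67 for Irx3, and the adjusted p in edgeR's quasi-likelihood test was 0.990 for each. Tbx5 (31 and 34 counts) and Tbx20 (68 and 65 counts), T-box factors of the cardiac muscle programme, were as scarce. Among 10 tested cardiac transcription factors, 8 were above 0 with a median log2 difference of 0.13, and 2 had an unadjusted p under 0.05, beside 49.54% and 5.02% of all tested genes. The median was 0.21 over the 14 members tested in controls and 0.022 over the 7 tested in nanoplastics mice. These medians cover different sets of genes, and their difference was not tested for the list. Nkx2-5, the core cardiac homeobox factor, was higher on the right in 6 of 6 mice, by 0.017 log2 in control mouse 2 (medians 18.2 and 11.6 CPM, log2 0.47, interval 0.06 to 0.88, adjusted p 0.937).

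Natriuretic peptide transcripts differed widely between the ventricles of single mice, in both directions. Nppa, which encodes atrial natriuretic peptide and is low in a healthy adult ventricle, measured 251.2, 106.7 and 246.6 CPM in the right ventricle of control mice 1, 2 and 3, against 130.8, 37.1 and 280.4 CPM in the left. In nanoplastics mice 1, 3 and 4 it measured 389, 501.3 and 416.9 CPM on the right and 72.1, 163 and 676.3 CPM on the left. The right value was the higher one in 4 of 6 mice. The exceptions were control mouse 3 and nanoplastics mouse 4, whose left libraries also held the most Myl7, Myl4 and Sln of the left libraries. Their summed levels were far apart, at 41.12 CPM in control mouse 3 (a library of 413400 counts) and 1605 CPM in nanoplastics mouse 4. The right library of nanoplastics mouse 4, at 100.4 CPM, lay above the left one of control mouse 3. The log2 difference was 0.89 (SE 0.46, interval -0.26 to 2.03, adjusted p 0.961), so neither equality nor a difference of 4-fold lies outside it. Nppb, which encodes brain natriuretic peptide and responds to wall stretch, ran from 337.4 to 814.2 CPM on the right (median 567) and from 208.5 to 1002 CPM on the left (median 512.5). It was lower on the right in the same 2 mice, and its log2 difference was 0.21 (interval -0.54 to 0.95, adjusted p 0.994).

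Without those 2 mice, edgeR's quasi-likelihood test called 8 of 6339 genes (0.126%). Nppa was then 1.56 log2 higher on the right (SE 0.15, adjusted p 6.01e-07, 4 of 4 mice) and Nppb 0.64 higher (SE 0.10, adjusted p 6.01e-07, 4 of 4 mice). The other called genes were Hbb-bt (1.09), Phlda1 (1.55), Zfp869 (0.99), Wfdc17 (0.61) and Clu (0.44) on the right, and Trim63 (-0.53) on the left. The mice were left out after the data had been seen, by the atrial genes in their left libraries, and they are also the mice in which Nppa and Nppb were not higher on the right, so these calls are a description of the remaining 4 hearts and no independent support. Leaving out either mouse alone gave no called gene.

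Of 13 tested genes of load and stress, 0 passed the test, 12 were above 0 and the median log2 difference was 0.21, beside -0.0019 over all tested genes, of which 49.54% were above 0. Acta1, the skeletal actin that is reactivated under load, ran from 57.2 to 166.9 CPM on the right and from 44.5 to 275.7 CPM on the left (log2 0.38, interval -0.50 to 1.26). Ankrd1, a stretch sensor of the sarcomere, stood at medians of 1634 and 1363 CPM (log2 0.11, interval -0.46 to 0.67). Myh7, the slow myosin heavy chain of the fetal and stressed heart, stood at medians of 45.0 and 39.1 CPM (log2 0.11, interval -0.19 to 0.40). Its highest values, 96.4 CPM on the right and 113.7 CPM on the left, both belonged to nanoplastics mouse 4.

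**Figure D2:**
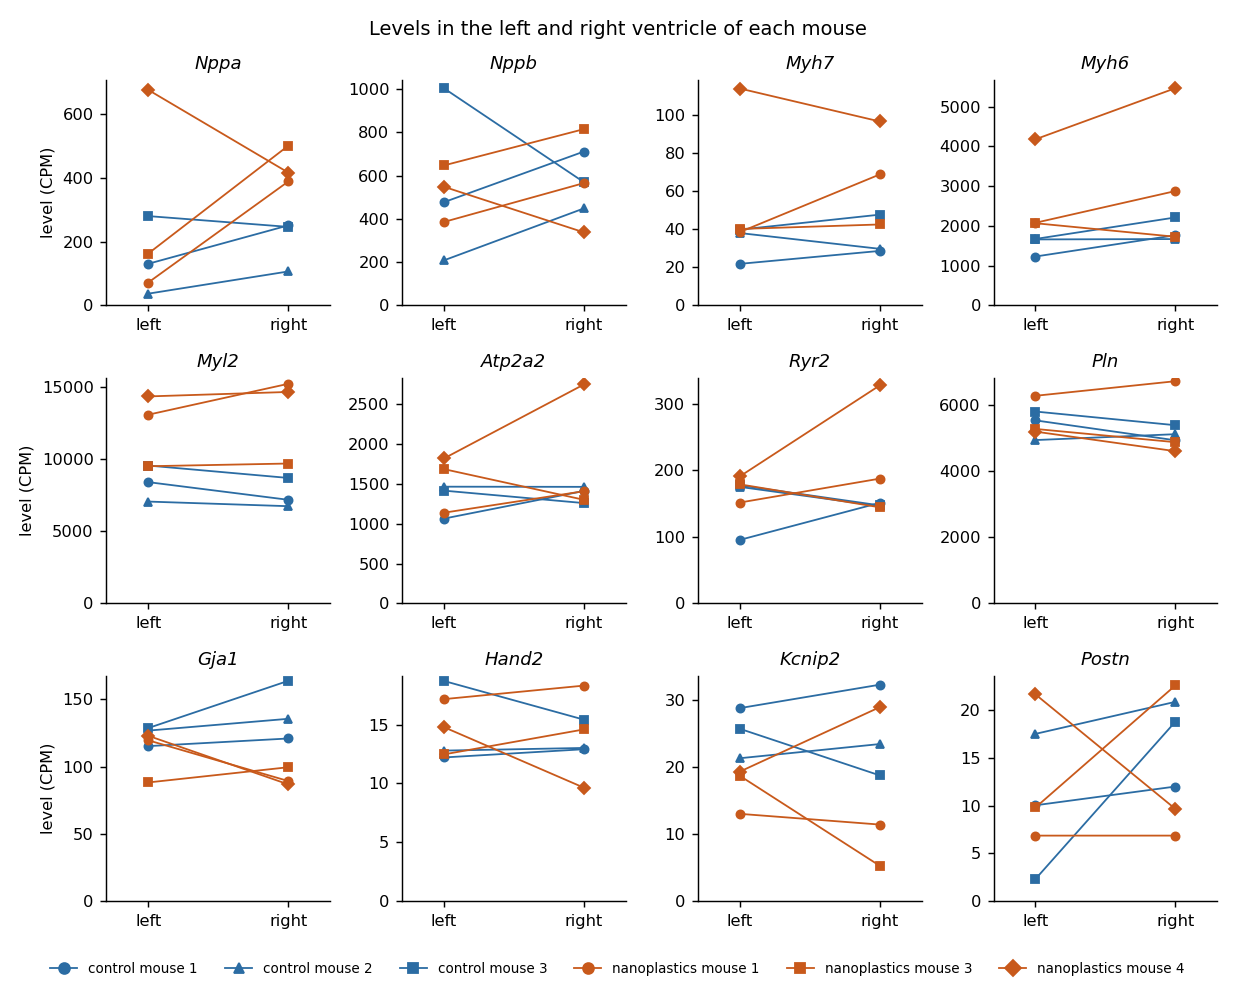
Levels (CPM, TMM-scaled, linear axes from 0) of 12 genes in the left and right ventricular library of each mouse, with a line joining the libraries of 1 mouse (blue, control; orange, nanoplastics). Lines for Nppa climb to the right in 4 mice and drop in control mouse 3 and nanoplastics mouse 4, and lines for Myl2 and Pln stay nearly level.

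No contractile protein gene passed the test, though a larger share of sarcomere genes than of all tested genes had an unadjusted p under 0.05. Myl2, the ventricular regulatory light chain, ran from 6750 to 15245 CPM on the right (median 9211) and from 7070 to 14370 CPM on the left (median 9547). Its log2 difference was -0.025 with an interval of -0.18 to 0.13, and its spread between mice was wider than that between the walls of one heart. Over 35 tested sarcomere and Z-disc genes, 0 passed the test, the median log2 difference was 0.036, and 32 had an interval inside 1.5-fold. There were 5 with an unadjusted p under 0.05 and the higher level on the right: Ttn, Myh6, Mybpc3, Xirp2 and Myom2. Over all tested genes, 5.02% had such a p (2.86% higher and 2.16% lower on the right). There were 3 with the higher level on the left: the ubiquitin ligase Trim63 (-0.35), the titin cap Tcap (-0.21) and the calcineurin-binding Z-disc protein Myoz2 (-0.18).

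Myh6, the fast myosin heavy chain of the adult mouse heart, measured 1767, 1671 and 2214 CPM in the right ventricle of control mice 1, 2 and 3, against 1231, 1661 and 1673 CPM in the left. In nanoplastics mice 1, 3 and 4 it measured 2878, 1728 and 5466 CPM on the right and 2080, 2068 and 4181 CPM on the left. The right value was higher in 5 of 6 mice, and the log2 difference was 0.26 (SE 0.08, interval 0.09 to 0.42, adjusted p 0.775). Ttn, which encodes the giant spring titin, was 0.31 higher on the right (SE 0.08, interval 0.14 to 0.48, adjusted p 0.470), also in 5 of 6 mice.

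Transcript length differed between the genes higher on either side. The 152 genes of known length with an unadjusted p under 0.05 and a higher right level had a median annotated length of 4343.5 nt, the 115 higher on the left 2245 nt, and all 5333 tested genes of known length 2827 nt. Ttn, at 106824 nt, was the longest tested gene. After a trend with length was removed from each library, the log2 difference of Ttn was -0.018, while those of Myh6 (0.21), Mark3 (0.96), Wfdc17 (0.49) and Zfp869 (0.81) stayed above 0. Ttn was not alone in its fall: Ryr2 went from 0.16 to 0.017 and Myh7 from 0.11 to 0.057. The median annotated transcript length per count was 1635 ± 125 nt on the right and 1602 ± 95 nt on the left (SD, n = 6 each), higher on the right in 3 of 6 mice.

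Genes of excitation and calcium cycling gave narrow intervals around equality where they were abundant. All 18 tested calcium handling genes had an interval inside 1.5-fold, with a median log2 difference of -0.031. Atp2a2, the calcium pump of the sarcoplasmic reticulum, stood at medians of 1411 CPM on the right and 1441 CPM on the left (log2 0.13, interval -0.05 to 0.31). Its inhibitor Pln stood at 5015 and 5395 CPM (log2 -0.068, interval -0.22 to 0.08). Ryr2, the calcium release channel, stood at 149.3 and 176.4 CPM (log2 0.16, interval -0.10 to 0.42). Its fitted difference was positive while its right median was lower, and its highest value was 327.8 CPM in the right library of nanoplastics mouse 4. With the trend with length removed, the log2 difference of Ryr2 was 0.017. Slc8a1, the sodium-calcium exchanger, was higher on the right in 5 of 6 mice (log2 0.24, interval 0.01 to 0.47, adjusted p 0.938).

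Only 7 of 28 listed potassium channel genes had enough counts, and 0 passed the test. Kcnj3 and Kcnj5, which form the acetylcholine-gated channel and are richer in atria, were lower on the right in 5 of 6 mice each, by log2 values of -0.47 (interval -0.88 to -0.06) and -0.54 (interval -1.08 to -0.0045), with an adjusted p of 0.938 for both. Kcnip2, an accessory subunit of the transient outward current channel, stood at medians of 21.1 and 20.3 CPM, with opposite signs in different mice (log2 -0.044, interval -0.44 to 0.35). Kcnd2, its pore-forming partner, had 51 counts on the right and 60 on the left, and Kcnj2, the inward rectifier, 36 and 48. Gja1, the ventricular connexin, stood at 110.1 and 121.1 CPM (log2 0.0066, interval -0.21 to 0.22). Of 16 tested intercalated disc genes, 13 were above 0 (median 0.14), among them the membrane anchor Ank2 (log2 0.65, interval 0.19 to 1.11, adjusted p 0.775) and the adherens junction protein Ctnnb1, which was higher on the right in 6 of 6 mice (log2 0.34, interval 0.07 to 0.61, adjusted p 0.824).

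Most genes of fatty acid oxidation and oxidative phosphorylation had slightly higher fitted levels on the left over the 6 mice, and 0 passed the test. Of 31 tested genes of fatty acid uptake and oxidation, 7 were above 0 and the median log2 difference was -0.080. Acadm, medium-chain acyl-CoA dehydrogenase, ran from 1121 to 2611 CPM on the right (median 1779) and from 1716 to 2458 CPM on the left (median 2106), lower on the right in 5 of 6 mice (log2 -0.25, interval -0.42 to -0.08, adjusted p 0.775). Hadhb, of the trifunctional protein, was -0.19 and the lipid droplet protein Plin5 -0.25. Of 78 nuclear genes of oxidative phosphorylation, 20 were above 0, the median was -0.035 and 77 had an interval inside 1.5-fold. By treatment, the oxidative phosphorylation median was -0.063 in controls and 0.016 in nanoplastics mice. The fatty acid median was -0.062 over the 35 members tested in controls and -0.11 over the 29 tested in nanoplastics mice. Uqcrfs1, the Rieske subunit of complex III, and Sdhd, a membrane anchor of complex II, were both lower on the right in 6 of 6 mice (log2 -0.17 each, adjusted p 0.938 each). Among 10 tested mitochondrially encoded genes, mt-Co1 was lower on the right in 5 of 6 mice (log2 -0.24, interval -0.40 to -0.09, adjusted p 0.775). The 75 tested cytosolic ribosomal protein genes had a median of -0.016, and all 75 had an interval inside 1.5-fold. Their median was of opposite sign in the treatments, -0.13 in controls and 0.11 in nanoplastics mice, beside medians over all tested genes of 0.0012 and 0.0032. This difference was not tested for the list.

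Matrix and non-muscle genes were likewise uncalled. In whole-tissue RNA, fewer cells of a type and less RNA per cell cannot be told apart. Of 27 tested extracellular matrix genes, 18 were above 0 (median 0.13). Timp2, an inhibitor of matrix metalloproteinases, stood at medians of 32.6 and 17.2 CPM (log2 0.52, interval 0.13 to 0.90, adjusted p 0.775). Postn, a matricellular protein of activated fibroblasts, stood at 15.4 and 9.91 CPM (log2 0.39, interval -0.07 to 0.84), and Col1a1, a fibrillar collagen, had 20 and 18 counts. The summed fibroblast markers were 1523 ± 228 CPM on the right and 1461 ± 138 CPM on the left, the endothelial markers 3191 ± 534 and 3248 ± 254 CPM, and the macrophage and monocyte markers 1064 ± 328 and 1019 ± 423 CPM (SD, n = 6 each). The class II antigen presentation gene H2-Ab1 was lower on the right in 6 of 6 mice, though nearly equal in control mouse 1 (log2 -0.0070; medians 48.5 and 55.4 CPM, log2 -0.45, interval -0.72 to -0.17, adjusted p 0.741).

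Red cell and platelet genes had the highest median among lists with at least 6 tested members. All 6 tested members were above 0, with a median log2 difference of 0.67 and 0 called, and the lowest was Pf4, a platelet gene, at 0.14. Hbb-bs, an adult beta globin, measured 296.4, 991.9 and 345.1 CPM in the right ventricle of control mice 1, 2 and 3 and 49.3, 359.8 and 523.5 CPM in the left. In nanoplastics mice 1, 3 and 4 it measured 610.9, 1056 and 1567 CPM on the right and 522.3, 608.4 and 1039 CPM on the left, so control mouse 3 was the exception in 6 (log2 0.82, interval -0.18 to 1.83, adjusted p 0.960). Hemoglobin genes took 0.129 ± 0.083% of counts on the right and 0.0852 ± 0.0575% on the left (SD, n = 6 each), with an exact two-sided sign-flip permutation p of 0.0938.

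**Figure D3:**
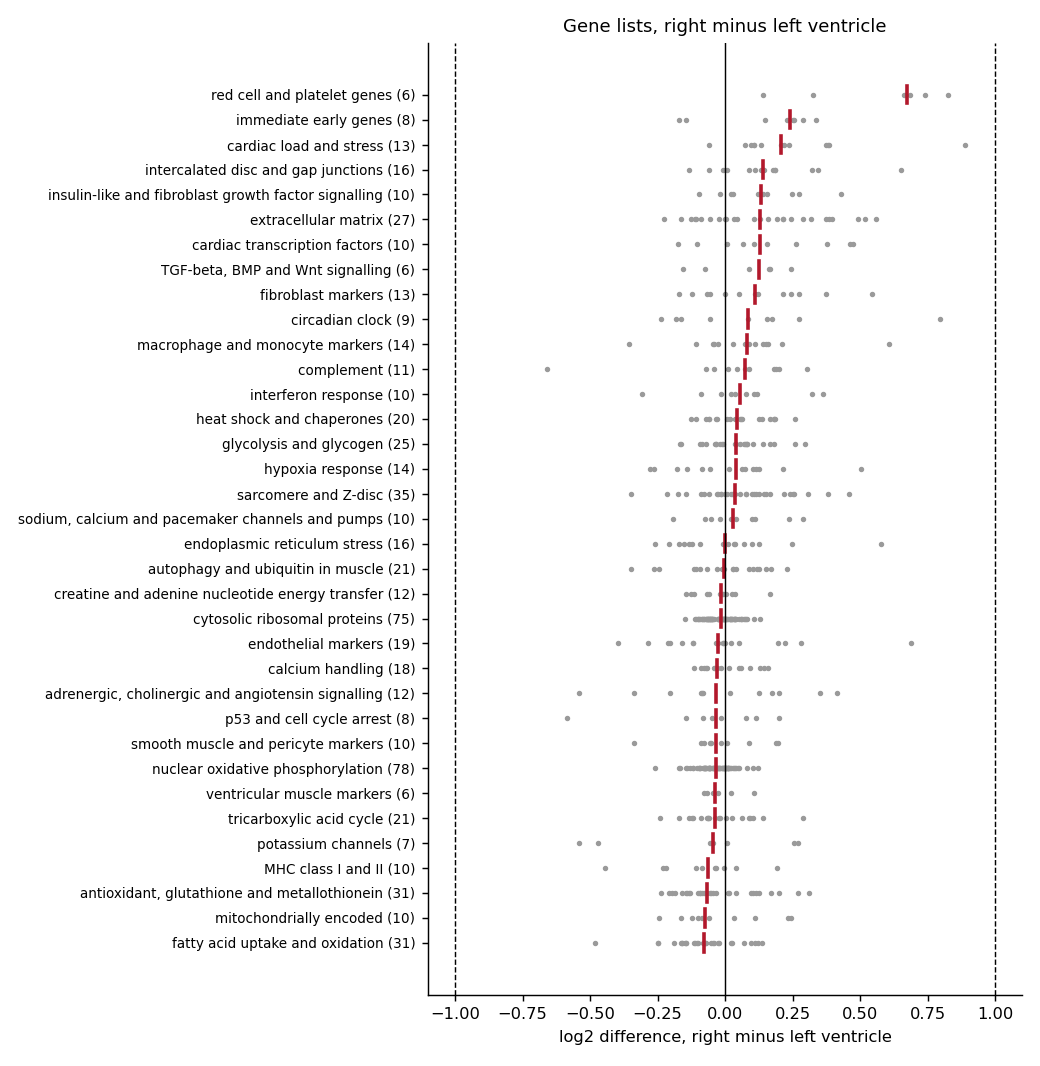
Log2 differences, right minus left ventricle, of every tested gene (grey points) in each gene list with at least 6 tested members (number in brackets), with the list median as a red bar. Dashed lines mark 2-fold. Medians lie between -0.080 (fatty acid uptake and oxidation) and 0.24 for all lists but the red cell and platelet genes, at 0.67.

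The 10 genes with the smallest p were picked after their values had been seen and are given as a description. Mark3, a microtubule-affinity regulating kinase, ran from 6.86 to 26.5 CPM on the right (median 16.6) and from 6.82 to 10.2 CPM on the left (median 7.51). It was higher on the right in 5 of 6 mice and tied in nanoplastics mouse 1 (6.864 against 6.863 CPM), with overlapping ranges and a log2 difference of 1.00 (SE 0.25, adjusted p 0.450). The proteasome adaptor Ecpas (0.44) and the endocytic adaptor Ehbp1l1 (0.75) were higher on the right in 6 of 6 mice. The others higher on the right were so in 5 of 6 mice: Wfdc17 (0.48), the zinc finger gene Zfp869 (0.79), Ttn (0.31), the methyltransferase cofactor Trmt112 (0.50), the membrane protein Emp1 (0.83) and the fast skeletal light chain Myl1 (0.36). Pgrmc1, a heme-binding membrane protein, ran from 2.41 to 15.9 CPM on the right (median 10.8) and from 13.04 to 22.24 CPM on the left (median 17.0). It was lower on the right in 6 of 6 mice, though nearly equal in nanoplastics mouse 3 (15.91 against 16.03 CPM; log2 -0.72, SE 0.22, adjusted p 0.659). Other regulators with an unadjusted p under 0.05 were Hif1a, the hypoxia-inducible factor (0.50, 6 of 6 mice), the clock repressor Nr1d1 (0.80, 5 of 6 mice), the small heat shock protein Hspb1 (0.26, 6 of 6 mice) and the nuclear noncoding RNA Malat1 (0.33, 4 of 6 mice).

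The comparison was repeated within each treatment. In the 3 control mice, edgeR's quasi-likelihood test called 0 of 7046 genes (0%), 281 (3.99%) had an unadjusted p under 0.05 (2.13% higher and 1.86% lower on the right), and DESeq2 called 0, with 14 at an unadjusted p under 0.05. In the 3 nanoplastics mice it called 13 of 4200 genes (0.31%), 10 (0.238%) higher and 3 (0.0714%) lower on the right, and 320 (7.62%) had an unadjusted p under 0.05 (4.31% higher and 3.31% lower on the right). Scaling by total counts gave 15 called genes, 9 higher and 6 lower on the right. Intervals were wider with 3 mice, and lay inside 2-fold for 79.9% of genes in controls and 79.95% in nanoplastics mice. For the 13 called genes, the p-values and intervals of the nanoplastics fit rest almost wholly on a variance shared across genes. They do not measure the spread between the 3 mice. Without nanoplastics mouse 4 there were 11 called genes, of which 7 were among the 13. Without nanoplastics mouse 1 there were 5, namely Myl7, Sln, Myl4, mt-Rnr2 and Hbb-bs, of which 1 was among the 13. DESeq2 called 1 (mt-Rnr1), and with no block for the mouse there were 0.

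The gene with the smallest p in nanoplastics mice was mt-Rnr1, the RNA of the small mitochondrial ribosomal subunit. It measured 15826, 9591 and 11342 CPM in the right ventricle of nanoplastics mice 1, 3 and 4, against 8362, 7662 and 7313 CPM in the left, so every right value lay above every left value. In control mice 1, 2 and 3 it measured 5607, 5511 and 5347 CPM on the right and 6676, 5296 and 6237 CPM on the left. The log2 difference was 0.64 in nanoplastics mice (SE 0.09, adjusted p 8.9e-08) and -0.14 in controls (interval -0.38 to 0.11, adjusted p 0.999). That nanoplastics p takes almost no account of the spread between the 3 mice, whose paired log2 differences were 0.92, 0.32 and 0.63. Without nanoplastics mouse 1 the difference in nanoplastics mice was 0.48 (adjusted p 0.144), and without mouse 4 it was 0.62 (adjusted p 0.0156).

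Depth and the ribosomal RNA share differed between the same libraries. The right libraries of nanoplastics mice 1, 3 and 4 held 523100, 813600 and 438100 counts, against 1690000, 1214000 and 924600 on the left. In control mice 1, 2 and 3, the totals were 2043000, 1792000 and 1333000 on the right and 2439000, 2128000 and 413400 on the left. The paired log2 differences of mt-Rnr1 were 0.92, 0.32 and 0.63 in nanoplastics mice 1, 3 and 4. They were -0.25, 0.06 and -0.22 in control mice 1, 2 and 3. The share of counts in mt-Rnr1, mt-Rnr2 and Gm42418 (a predicted gene at a ribosomal RNA locus) includes mt-Rnr1 itself. It was 8.13, 4.67 and 4.26% in the right libraries of nanoplastics mice 1, 3 and 4 and 3.15, 3.40 and 3.21% in the left ones. In control mice 1, 2 and 3 it was 2.64, 2.67 and 2.66% on the right and 3.45, 2.54 and 3.22% on the left. The part of ribosomal RNA carry-over in these libraries was not tested.

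The other 9 genes higher on the right of nanoplastics mice, beside mt-Rnr1, were Cenpf, Gm42418, Hbb-bs, Chchd10, Tle5, Crip2, Wfdc17, Scgb1c1 and Gstm1. Cenpf, a centromere protein of dividing cells, measured 89.23, 53.05 and 79.53 CPM on the right of nanoplastics mice 1, 3 and 4 and 28.8, 32.1 and 31.8 CPM on the left (log2 1.23, SE 0.23, adjusted p 0.000114). Chchd10, a protein of the mitochondrial intermembrane space, was 0.50 higher, the corepressor Tle5 0.65, the LIM protein Crip2 0.48, the glutathione transferase Gstm1 0.58, Wfdc17 0.78, Scgb1c1 0.64, Gm42418 0.52 and Hbb-bs 0.56. The fitted difference of Hbb-bs was larger in controls, at 1.15, with a wide interval (-1.93 to 4.22) and no call. Its nanoplastics minus control value was -0.60 (edgeR, adjusted p 0.973). Hemoglobin took 0.0826, 0.143 and 0.272% of counts in the right libraries of these mice and 0.0762, 0.0835 and 0.184% in the left ones. The 3 genes lower on the right were Acadm (-0.41, SE 0.10, adjusted p 0.025), the predicted gene Gm50321 (-0.70) and the class II antigen presentation gene H2-Aa (-0.78). H2-Aa measured 45.8, 41.1 and 72.3 CPM on the right and 105.7, 67.7 and 101.2 CPM on the left of nanoplastics mice 1, 3 and 4. In controls, its right values of 63.2, 130.7 and 65.0 CPM overlapped its left values of 39.2, 154.8 and 70.1 CPM.

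**Figure D4:**
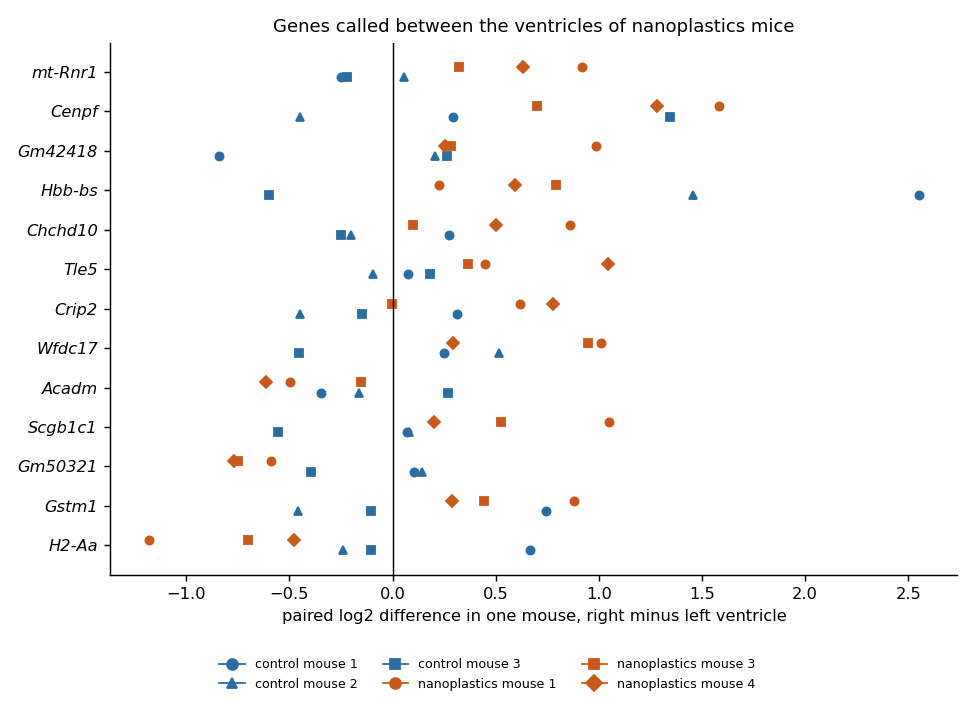
Paired log2 difference (right minus left ventricle) in each mouse for the 13 genes called in nanoplastics mice (orange), with the same genes in control mice (blue). The 3 orange points share a side of 0 for 12 of the genes, and for Crip2 nanoplastics mouse 3 sits at 0, while the blue points lie on both sides of 0 for every gene.

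A call in one treatment and not in the other does not show that the treatments differ, so the difference of the paired differences was tested. It passed for 1 of 5382 genes (0.0186%), mt-Rnr1, whose right minus left value was 0.76 higher in nanoplastics than in control mice (SE 0.15, interval 0.46 to 1.07, adjusted p 0.0137). There were 270 genes (5.02%) at an unadjusted p under 0.05, of which 17 were also among the 270 of the comparison over all 6 mice. DESeq2 called 0 genes, with 64 at an unadjusted p under 0.05. The call of mt-Rnr1 was lost without any 1 of the nanoplastics mice, with adjusted p of 0.990, 0.0835 and 0.185 without mice 1, 3 and 4. Without mouse 4, 3 other genes were called (Socs2, Fyco1 and mt-Rnr2). The call was also lost when nanoplastics mouse 2 was added (log2 0.35).

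The other 9 genes among the 10 smallest p in this test were not called. The differences were negative for the matrix protein Sparcl1 (-0.81), the cytokine signalling suppressor Socs2 (-1.26), H2-Aa (-0.88), Rps19bp1 (-1.22), the mitochondrial protease subunit Afg3l2 (-0.98) and the pericyte marker Rgs5 (-0.63). They were positive for Cenpf (1.16), the F-box protein Fbxo9 (1.65) and C1qtnf4 (1.46). Afg3l2 measured 16.0, 39.8 and 33.7 CPM on the right of nanoplastics mice 1, 3 and 4 and 53.5, 59.7 and 55.7 CPM on the left, while the 6 control libraries lay between 62.8 and 75.1 CPM. Its adjusted p was 0.445, and Sparcl1, Cenpf and Socs2 had 0.326.

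Over 28 library measures, the smallest p of the exact two-sided sign-flip permutation test over the 6 mice was 0.0938 (adjusted 0.875). The smallest p that 6 mice allow is 0.0313, so 1 measure could not have passed after adjustment over 28, and the values are given as a description. Mitochondrially encoded genes took 27.6 ± 2.7% of counts on the right and 28.5 ± 4.0% on the left, and ribosomal protein genes 4.94 ± 0.60% and 4.89 ± 0.52% (SD, n = 6 each). In the plot of library measures, total counts drop from left to right in 5 mice, and the ribosomal RNA share of nanoplastics mouse 1 is the highest of the 12 libraries.

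**Figure D5:**
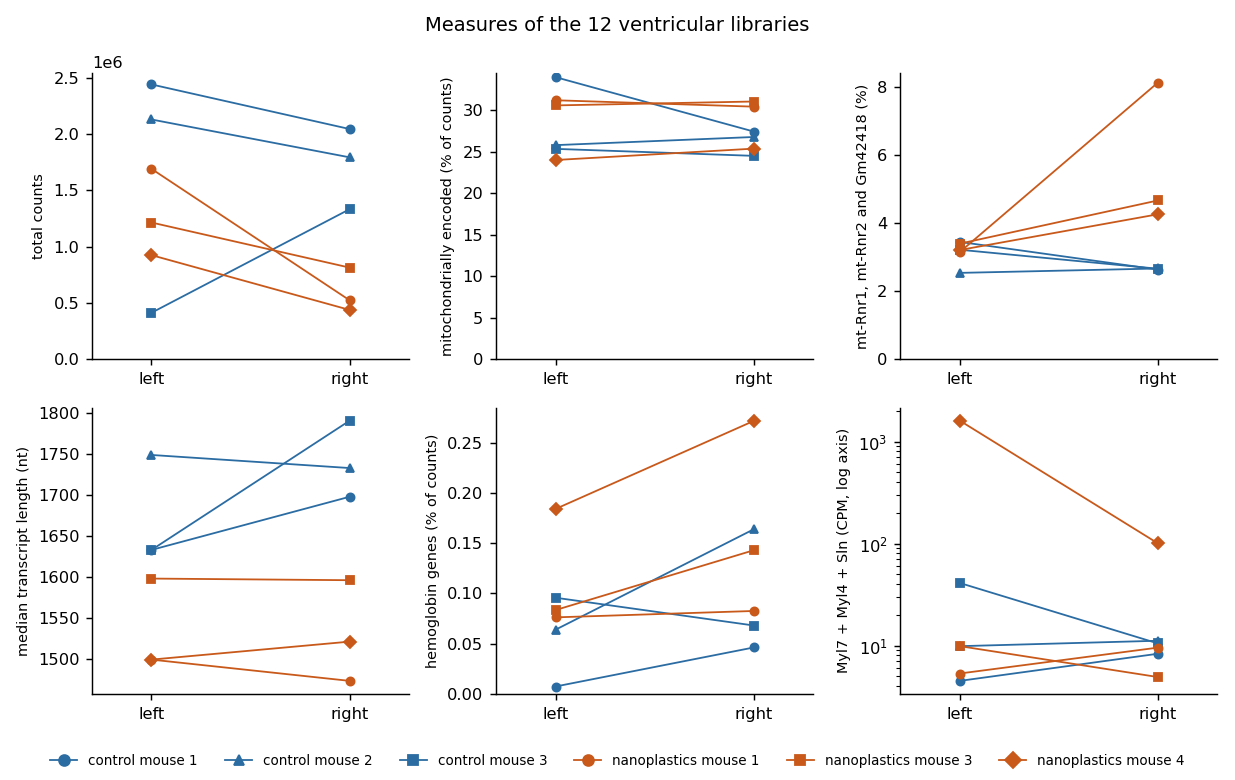
Measures of the left and right ventricular library of each mouse (blue, control; orange, nanoplastics), with a line joining the libraries of 1 mouse; the y axis of each panel names the measure and unit, and the last is logarithmic. Summed Myl7, Myl4 and Sln reach 1605 CPM in the left library of nanoplastics mouse 4 and at most 100.4 CPM in the other 11.

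Libraries of one heart resembled each other, with overlap between hearts. Spearman's rho between the right and left library of one mouse was 0.902 to 0.965 (median 0.924, 6 pairs, over the tested genes), against a median of 0.907 between a right and a left library of different mice of one treatment (12 pairs, 0.859 to 0.960). These values share library depth and are a description. A mouse's own left library was the closest left library for 4 of 6 right libraries. In the other direction, a mouse's own right library was the closest for 3 of 6 left libraries. The left libraries of nanoplastics mice 1, 3 and 4 were closest to the right libraries of control mice 3, 2 and 3. After the group means were taken out, each right library was closest to the left library of its own mouse in 6 of 6 mice.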

How the data were processed

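Bulk RNA was measured in 21 heart sections, of which 12 ventricular libraries were used. Per the labels, poly-A RNA was captured in a plate-based kit that adds well barcodes at the 5′ end by template switching, and read as 150 bp pairs. The submitters' processing notes name STAR. Not given in the sources used here are its version, the build and annotation, the counter, strand handling and whether molecular identifiers were collapsed, so a gene and its antisense or near-identical copies may share reads. The deposited table holds raw counts per gene symbol (20960 genes) as the authors made it; all other values were computed from these counts.

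Counts were filtered with filterByExpr by section, scaled by TMM and tested with edgeR 4.0.16 (R 4.3.3, limma 3.58.1; robust quasi-likelihood, mouse as a block, Benjamini-Hochberg adjusted p under 0.05). DESeq2 1.42.0 was an alternative. Intervals (95%) use the model's standard errors. Both sections come from one animal per the labels, and the deviations of right and left libraries from their group means correlated at 0.193 to 0.326 over the 6 mice. Exact sign-flip permutation tests covered 28 library measures. Transcript lengths came from GENCODE M21 by symbol (99.1% of tested genes). Methods were tested on simulated data.

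The genes named were 28 fixed genes (15 tested; some are not reported here), the 10 smallest p of the treatment difference, and called genes by size and list; that last part named 0 genes over the 6 mice, and the called genes in nanoplastics mice and the 10 smallest p over the 6 mice were added after their values were seen. The members and the 51 gene lists were chosen with earlier results of these data known. Alternatives were other scaling, filters, DESeq2, no block, thinning, a length correction, all sections, nanoplastics mouse 2, and each mouse left out. Counting error limits the shallowest libraries most. The edgeR p-values and intervals rest on a variance partly shared across genes (median of 64.8 degrees of freedom over the 6 mice). They do not measure the spread between these animals alone. In the fit of nanoplastics mice alone, those of the called genes rest almost wholly on the shared variance.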

Additional observations from a re-analysis of the deposited data

Results flagged for a closer look

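Paired differences (right minus left ventricle) were screened for a single mouse lying far from the other 5, over 72 sets of values. There were 8 that stood out, all of them library measures. For separate sets chance gives about 1 in 20. Some sets share genes, as Myl7, Myl4 and Sln are among the 17 atrial markers, so whether 8 exceeds chance was not tested. Nanoplastics mouse 4 stood out in Myl7, Myl4 and Sln summed (-1505 CPM, other mice -30.62 to 4.233) and of the 17 atrial muscle markers (-1755 CPM, other mice -97.9 to 290.2). Nanoplastics mouse 1 stood out in the share of counts in ribosomal RNA genes (4.981 percentage points, other mice -0.8136 to 1.27), and in the summed neutrophil and mast cell markers (-8.923 CPM, other mice 5.082 to 12.91) and Schwann cell and neuron markers (-10.24 CPM, other mice -2.406 to 1.831), which rest on few counts. Control mouse 1 stood out in the share of mitochondrially encoded counts (-6.543 percentage points, other mice -0.8461 to 1.362) and of the 10 most abundant genes (-5.649 percentage points, other mice -1.317 to 0.8479). Control mouse 3 stood out in the share of pseudogene counts (-0.1082 percentage points, other mice 0.04159 to 0.1074).

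The right minus left difference of mt-Rnr1 was 0.7645 log2 higher in nanoplastics than in control mice by the test of the difference itself (edgeR, adjusted p 0.0137).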

How the results depend on the processing

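Over all 6 mice, 0 genes were called under total-count and relative log expression scaling, DESeq2, no replicate block, thinning, a length correction, a mean of 10 counts and all 3 sections. There were 2 (Myl4, Hbb-bt) with no filter on low counts, 1 (Hbb-bt) with nanoplastics mouse 2, 0 to 1 leaving out each mouse (Cenpf without control mouse 2) and 8 without nanoplastics mouse 4 and control mouse 3, chosen after seeing the data. In controls there were 2 with no filter (Nppa, Hbb-bt) and 0 to 7 leaving out each mouse; the 7 came without control mouse 3 (Nppa, Nppb, Acta1 and 4 globin genes). In nanoplastics mice the 13 became 1 with DESeq2, 22 with no filter (2 higher and 20 lower on the right, with a median over all genes of -0.14), 0 without the replicate block and 5 to 19 leaving out each mouse, 5 without mouse 1. For the treatment difference, mt-Rnr1 stayed the 1 called gene under total-count and relative log expression scaling. It also did with a mean of 10 counts, thinning and the length correction. The 1 gene became 0 with DESeq2, 4 with no filter and 0 with nanoplastics mouse 2. Leaving out each mouse gave 0 to 4 (0 without nanoplastics mouse 1 or 3, 3 without nanoplastics mouse 4 or control mouse 1, 4 without control mouse 3). Total-count scaling moved the median of all genes in this test to -0.10 and no filter to -0.13. The causes were not tested.

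Of 408 values for single genes over the 6 mice, 24 changed sign, all but that of Ttn in genes at 0.11 or less on either side of 0 in the reported fit. Gja1 was -0.0058 with DESeq2, -0.017 with no filter, -0.0070 without the replicate block, -0.0023 with the length correction and -0.057 to 0.068 leaving out each mouse. Hand2 was 0.033 by totals, 0.0050 without the replicate block, 0.0033 with the length correction, 0.041 with all sections, -0.052 to 0.034 leaving out each mouse and 0.084 without nanoplastics mouse 4 and control mouse 3. Kcnip2 was 0.0029 by totals and Myl2 0.010 by totals and 0.00095 thinned. Leaving out each mouse gave -0.15 to 0.098 for Kcnip2, -0.074 to 0.017 for Myl2, -0.013 to 0.24 for Myh7 and -0.17 to 0.21 for Pdk4. Ttn was -0.018 with the length correction.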
